A study of Mus musculus with 18 samples.

Results

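The apex and the middle region of the cochlea were compared within Fst cKO mice, 4-week-old mice with a conditional knock-out of Fst, the gene of follistatin. The comparison rests on 6 of the 18 libraries of the series, 3 of Fst cKO apex and 3 of Fst cKO middle, chosen by their labels. The other 12 libraries are Fst cKO base and the base, middle and apex of control mice of the same age, labelled WT and untreated. For each region and genotype the cochlear pieces were pooled into 1 RNA sample, which was then split into 3 technical libraries. Each side of the comparison is therefore 1 pool, and the p-values measure the spread between libraries of a pool, not between animals. The Cre driver, the number of animals per pool and the cells in which Fst was deleted are not given in the sources used here. In the cKO apex and middle, a library held 26896422 to 33732726 counts, and in all 18 libraries 24446760 to 33732726. The middle libraries were the deeper ones, from 33573418 counts upward, against at most 27024003 in the apex.

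The cochlea is tonotopic, which means that the base receives high frequencies and the apex low ones, and hair cells, the tectorial membrane above them and the neurons below them are graded along it. Follistatin is a secreted protein that binds activins and some BMPs and keeps them from their receptors, and it is known to be enriched towards the apex. Sonic hedgehog, released by spiral ganglion neurons in the embryo, is known to help set up the apical part of this axis, and the title of the series places follistatin and hedgehog signalling together there.

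Of 17901 genes tested, 824 (4.6%) were called different between cKO apex and cKO middle. The call required an adjusted p under 0.05 and a log2 change of at least 1 in size. In the apex 299 genes (1.67%) were higher and 525 (2.93%) were lower. The libraries of the 2 pools did not overlap for 290 of the higher and 507 of the lower genes. A lack of overlap, given below for single genes, was thus shared by nearly all called genes. The lower genes also changed by more, since 99 of them had a log2 change of at least 3 in size, against 36 of the higher ones. Most genes moved little, with a median log2 change of -0.0014 over all tested genes. With the adjusted p alone, 4607 genes were higher and 4508 lower, because libraries of 1 pool varied so little that the test resolved small differences between the pools. Of the called genes, 122 of the higher and 207 of the lower ones stayed under 1 CPM (a gene's count scaled to a common library total) in the pool where they were higher. The gene lists that follow were chosen with earlier results of these data known. Their counts beside the share of all genes are therefore no independent evidence. Errors given with log2 changes are standard errors derived from the test, with 3 libraries per pool. Each is the size of the change divided by the square root of its F statistic. They are approximate and can fall below counting error for genes with many counts.

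**Figure D1:**
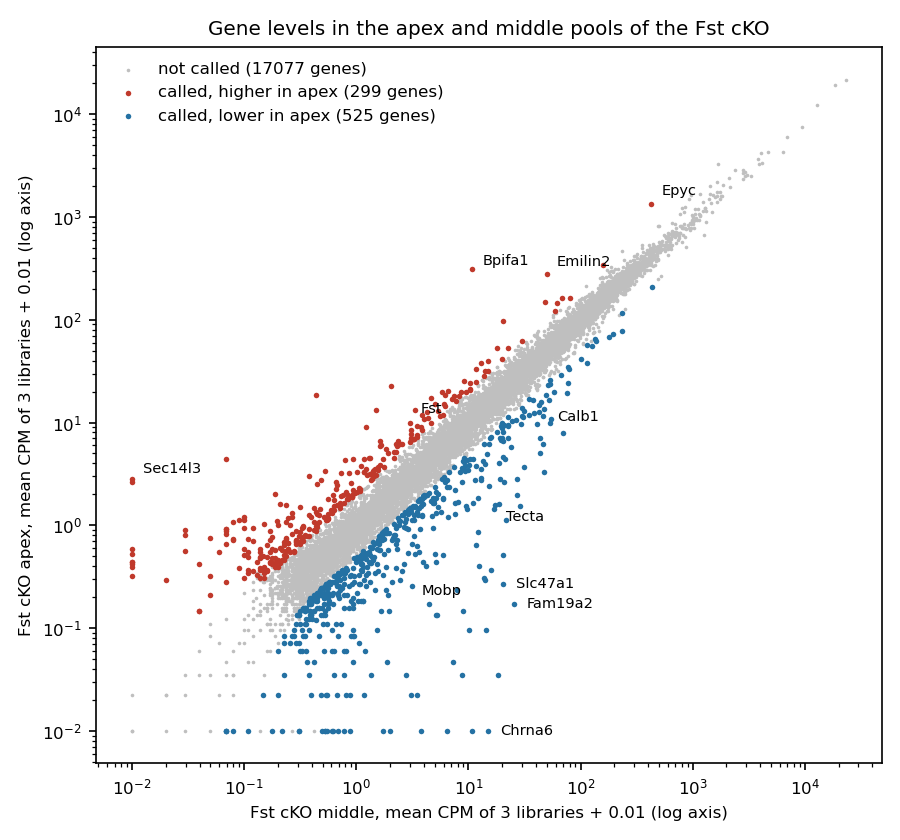
Mean level of each tested gene in the 3 libraries of Fst cKO middle (x) and Fst cKO apex (y), in CPM plus 0.01 on log axes. The 299 genes called higher in the apex lie above the diagonal and the 525 called lower lie below it, and several neuronal genes such as Chrna6 lie on the floor of the y axis with no count in the apex.

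Fst itself (ENSMUSG00000021765, chromosome 13, 114452290 to 114458951, minus strand, GRCm38/mm10) kept an apical excess in the knock-out. The apex libraries held 9.67, 9.55 and 10.3 CPM, and the middle libraries 2.71, 2.88 and 3.38 CPM. All 3 apex libraries lay above all 3 middle libraries, with a log2 change of 1.71 ± 0.091 (adjusted p = 9.8e-18). In control mice the means were 6.37 CPM in the middle and 24.4 CPM in the apex, a log2 change of 1.90 ± 0.068. Levels in both cKO pools were thus below those of the same regions in control, while the step between them was not called different from the control step (difference -0.19 ± 0.12, adjusted p = 0.243). Counts per gene do not show which exons the transcripts contain, so these values check the labels only as far as the level goes. In bulk RNA, fewer cells of a type and less RNA per cell cannot be told apart, here or in the results that follow.

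Among the 49 tested genes of the activin and BMP pathway, 4 were higher in the apex and 1 was lower, against 1.67% and 2.93% of all tested genes, with a median log2 change of 0.04. Besides Fst, the higher members were ligand subunits and a receptor. Inhba, which encodes the subunit of activin A, held 3.94, 3.7 and 2.89 CPM in the apex libraries and 1.19, 1.16 and 1.3 CPM in the middle libraries (log2 change 1.52 ± 0.16). Inhbb, the subunit of activin B, had means of 2.3 and 1.05 CPM, a log2 change of 1.12 ± 0.19 that came to 1.0 (rounded) and lost its call without middle replicate 1. Acvr1c, the receptor ALK7, had a log2 change of 1.12 ± 0.26. For these genes the apex and middle libraries did not overlap. Gdf10, a BMP-like ligand that is also on the list of spiral ligament fibrocyte genes, was the lower member, with a log2 change of -1.32 ± 0.073 (means of 6.14 and 15.3 CPM). The transcripts that report BMP signalling, Id1 and Smad6 among them, stayed under the fold threshold: Id1 held 80.2 to 83.9 CPM in the apex and 50.9 to 51.7 CPM in the middle (log2 change 0.67 ± 0.025). Smad6, an inhibitor induced by BMP, had a log2 change of 0.89 ± 0.036, and the ligand Bmp4 one of 0.77 ± 0.042. None of the 12 transducers and targets on the list was called, against 4.6% of all genes. No pathway member differed from the control step by the same call, against 3.6% of all genes.

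In the hedgehog pathway 1 of 19 members was called, a share near the 4.6% of all genes, so the count is no result about the pathway. Gli1, a transcription factor that is also a direct target of the pathway and so a common readout of it, held 4.28, 3.26 and 3.85 CPM in the apex libraries and 8.91, 9.52 and 9.34 CPM in the middle libraries. It was lower in the apex by a log2 change of -1.29 ± 0.087 (adjusted p = 5.88e-15), with no overlap. The same step in control was -0.36 ± 0.099, and the difference between the genotypes, -0.94 ± 0.13, fell just short of the threshold. That difference came to -1.03 without apex replicate 1. Gli2, an activator of the pathway, had a log2 change of -0.60 ± 0.081, and Ptch1, a receptor that is also a target, one of -0.23 ± 0.028. For Shh, the ligand, the apex libraries (3.2 to 4.07 CPM) overlapped those of the middle (3.93 to 4.51 CPM), and its adjusted p was 0.0847. The list's median log2 change was 0.04.

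The tectorial membrane is an extracellular gel over the hair cells, built of collagens and of non-collagenous proteins such as the tectorins. Of 12 tested genes of this and related membranes, 4 were higher in the apex and 2 lower, against 1.67% and 2.93% of all genes. The 2 tectorins went opposite ways. Tectb (ENSMUSG00000024979, chromosome 19, 55180733 to 55196313, plus strand), which encodes beta-tectorin, held 8.74, 9.22 and 9.44 CPM in the apex libraries and 3.4, 3.94 and 3.91 CPM in the middle libraries (log2 change 1.27 ± 0.091). Tecta (ENSMUSG00000037705, chromosome 9, 42329619 to 42399929, minus strand), which encodes alpha-tectorin, held 1.56, 1.41 and 1.37 CPM in the apex and 16.1, 17.8 and 16.4 CPM in the middle (log2 change -3.54 ± 0.11). Neither gene's groups overlapped. In control the Tectb means were 0.771 CPM in the middle and 28.1 CPM in the apex, so its cKO step was smaller (difference -3.86 ± 0.17). Control Tecta was at 1 CPM in the middle and 1.76 CPM in the apex, and the level in cKO middle stood above the other 5 pools, of which cKO base was the highest at 2.29 CPM. The difference of its step between genotypes was -4.31 ± 0.23.

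Among the other matrix genes, Emilin2 had the largest positive change on the list: 278.1 to 281.1 CPM in the apex libraries and 49.4 to 50.3 CPM in the middle libraries (log2 change 2.48 ± 0.024). It encodes an extracellular protein found in the basilar membrane. Otogl, an otogelin-like protein of the tectorial membrane, was higher too (log2 change 1.04 ± 0.032), whereas Otog itself was not called (0.16 ± 0.02). Ceacam16, a tectorial membrane protein, had a log2 change of 0.59 ± 0.0056. Oc90, an otoconial protein, was higher at a log2 change of 1.20 ± 0.29 but held only about 1 CPM in the apex, and the call was lost at 0.96 without apex replicate 3. Otol1, an otolith protein, was lower, with 1.75, 1.18 and 2 CPM in the apex and 5.09, 4.66 and 4.8 CPM in the middle (log2 change -1.57 ± 0.16). Control Otol1 went the other way (log2 change 2.14), and the difference was called (-3.71 ± 0.27). The collagen Col2a1 had a log2 change of -0.99 ± 0.021, under the threshold.

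Outer hair cells amplify sound by changing length, a motion driven by the motor protein prestin. Of the 11 genes of these cells that were tested, 4 were higher in the apex, against 1.67% of all genes, and 1 was lower. Slc26a5, the gene of prestin, held 19.3, 19.8 and 20.6 CPM in the apex libraries and 5.63, 5.81 and 5.84 CPM in the middle libraries (log2 change 1.78 ± 0.065). Ocm, the calcium buffer oncomodulin, was at 149.2 to 150.8 CPM and 46.2 to 49.2 CPM (log2 change 1.64 ± 0.024). Chrna9 and Chrna10, the subunits of the receptor for efferent acetylcholine, had log2 changes of 1.40 ± 0.14 and 1.24 ± 0.054. No library of the middle reached the lowest apex library for any of these genes. The control steps of Slc26a5 and Ocm were nearly as large (1.76 and 1.67), and neither differed between genotypes (0.02 ± 0.098 and -0.03 ± 0.035).

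Genes shared by inner and outer hair cells went both ways. Of 35 tested, 3 were higher (Strc, Barhl1 and Pou4f3) and 3 lower (Tmc2, Ptprq and Xirp2), against 1.67% and 2.93% of all genes, and the median was 0.32. Strc, which encodes the stereocilia protein stereocilin, held 33, 34.5 and 32 CPM in the apex and 11, 11.7 and 12.2 CPM in the middle (log2 change 1.5 ± 0.055). Pou4f3, a transcription factor required for hair cell survival, had a log2 change of 1.14 ± 0.061, and Barhl1, another hair cell transcription factor, one of 1.5 ± 0.17. Ptprq, a phosphatase-like protein at the base of stereocilia, was lower at 9.66 to 9.81 CPM against 28.6 to 30.7 CPM (log2 change -1.60 ± 0.054). Xirp2, an actin-binding protein of stereocilia, was lower too, at means of 1.11 and 3.12 CPM (log2 change -1.49 ± 0.17). Both genes were higher in control apex than in control middle, with differences between genotypes of -2.80 ± 0.092 and -3.57 ± 0.29. Tmc2, an early transduction channel subunit, stayed under 1 CPM in every library of both pools, and its call was lost without middle replicate 2, at -1.17, and without apex replicate 2, at -1.36. The transduction channel subunit Tmc1 was not called (0.18 ± 0.059).

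None of 10 inner hair cell genes was called, against 4.6% of all genes. With so small a share, this count is no result about the list. Otof, which encodes the synaptic vesicle protein otoferlin, held 107.6, 101 and 105.8 CPM in the apex and 70.7, 70.5 and 71.4 CPM in the middle, a log2 change of 0.56 ± 0.025. Slc17a8, the glutamate transporter of their synapse, had one of 0.69 ± 0.053. In control the Otof step was 1.29 ± 0.026, which was called.

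Supporting cells hold the hair cells in place. Of 20 such genes, 1 was called, a share near the 4.6% of all genes, so the count is no result about the list. The called gene was Epyc. It encodes epiphycan, a small proteoglycan, and held 1347 to 1356 CPM in the apex and 423.3 to 429.8 CPM in the middle (log2 change 1.65 ± 0.0059). Fgfr3, the FGF receptor of pillar and Deiters cells, had a log2 change of 0.97 ± 0.027 and passed the threshold without middle replicate 2, at 1.0 (rounded). Gjb2, the gap junction protein connexin 26, went slightly the other way (-0.15 ± 0.0065).

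**Figure D2:**
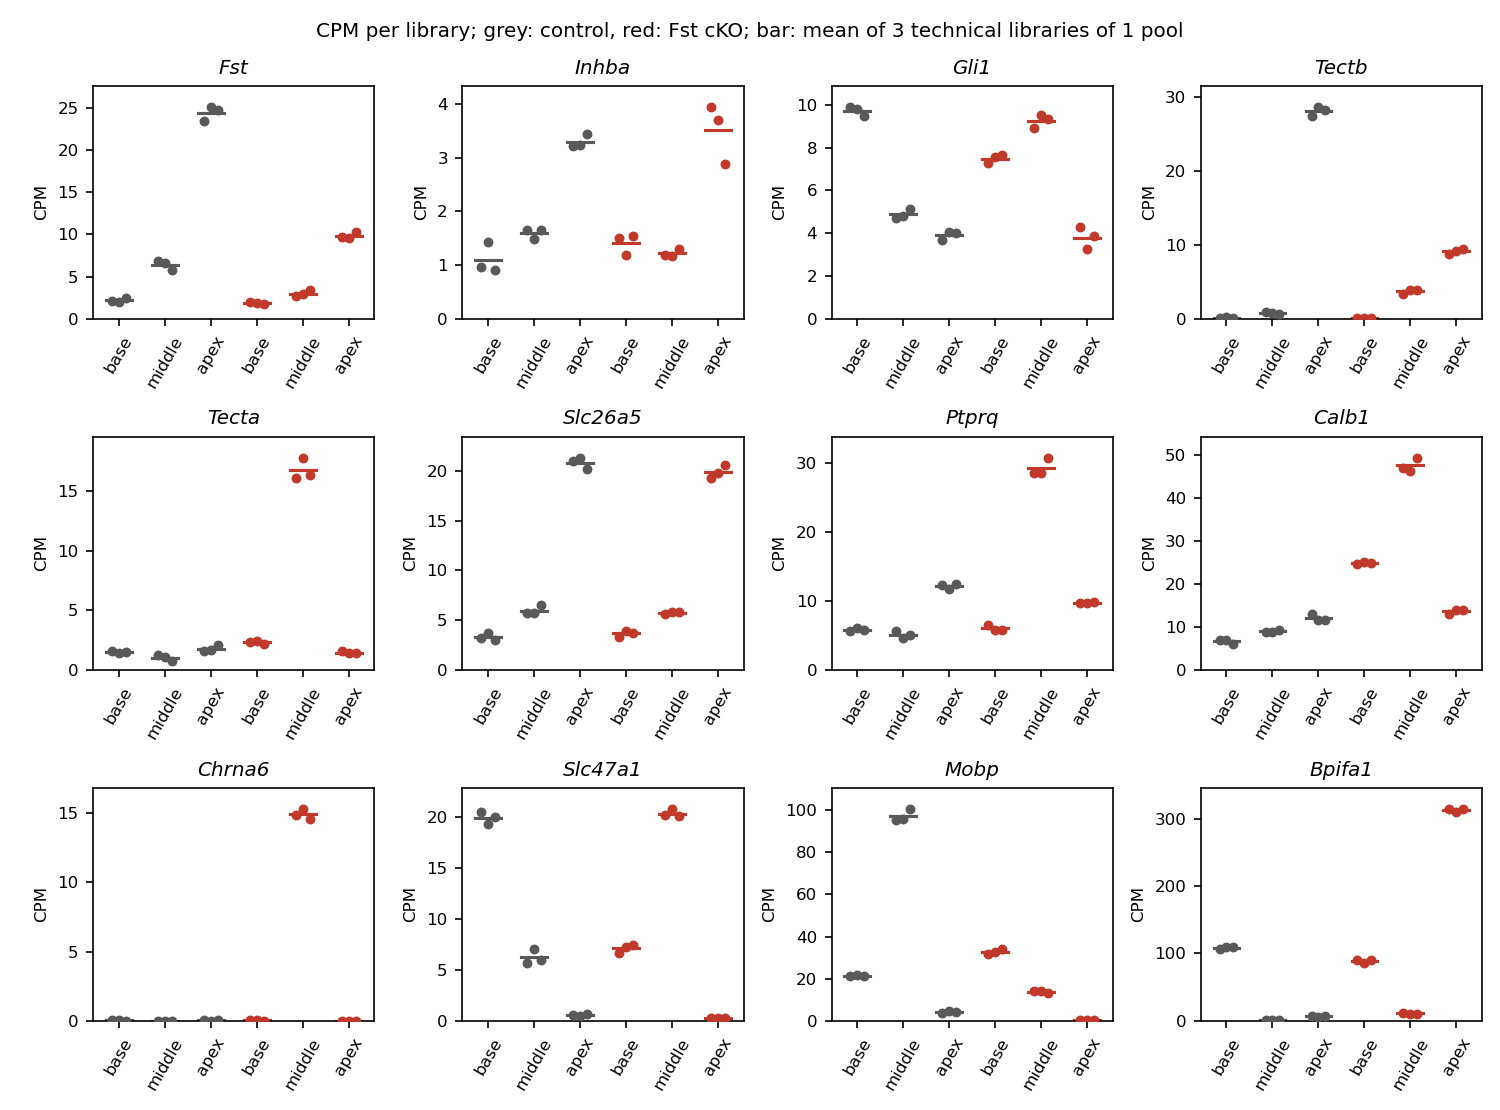
CPM of 12 genes in each of the 18 libraries (points) of the 6 pools, with the mean of 3 libraries as a bar and a linear axis from 0 in each panel. Tecta, Ptprq, Calb1 and Chrna6 are high in the middle pool of the cKO and low in the middle pool of the control, whereas Fst, Tectb and Slc26a5 peak in the apex of both genotypes.

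Retinoic acid, made from vitamin A, is another signal that patterns the cochlea. Of 10 tested retinoid genes, 4 were lower in the apex and 1 higher, against 2.93% and 1.67% of all genes. Of 10 other genes with regional expression 3 were lower and 2 higher. Rbp4, the serum carrier of retinol, had the largest negative change, with 1.23, 1.04 and 1.3 CPM in the apex and 6.34, 6.26 and 7.06 CPM in the middle (log2 change -2.47 ± 0.13). In both genotypes it was highest in the base (31.5 CPM in control and 43.5 CPM in cKO). Stra6, the membrane receptor for that carrier, had a log2 change of -1.74 ± 0.11. Cyp26b1, which breaks retinoic acid down, had one of -1.66 ± 0.077, and Aldh1a2, which makes it, one of -1.18 ± 0.04. For Cyp26b1 the control step was much the same (-1.84), and for Stra6 it was not (0.02, difference -1.76 ± 0.15). Crabp1, a binding protein that holds retinoic acid in the cytoplasm, was higher in the apex by 1.30 ± 0.17.

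Calb1 was lower among the regional genes. It encodes calbindin, a calcium buffer of hair cells, spiral ganglion neurons and Purkinje cells, and it therefore stands on several of the lists. The apex libraries held 12.9, 14 and 13.8 CPM and the middle libraries 47.1, 46.4 and 49.3 CPM (log2 change -1.82 ± 0.042). Control means were 8.95 CPM in the middle and 12 CPM in the apex, and the difference between genotypes was -2.20 ± 0.076. A2m, a protease inhibitor, had a log2 change of -1.05 ± 0.02 and Hoxa2, a hindbrain homeobox gene, one of -1.49 ± 0.34. Nr2f1, a nuclear receptor, was higher by 1.02 ± 0.024, with 162.8 to 163.9 CPM against 79.5 to 81.5 CPM, and Lhx1, a LIM homeobox gene, by 2.26 ± 0.25.

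Of 22 Wnt pathway genes, 1 was higher and 2 were lower, against 1.67% and 2.93% of all genes. Wnt2 held 0.0744, 0.037 and 0.148 CPM in the apex and 1.46, 1.57 and 1.54 CPM in the middle, a log2 change of -4.08 ± 0.39, and was at or under a mean of 0.21 CPM in each of the other 4 pools. Wnt4 had a log2 change of -1.29 ± 0.067. Sfrp2, a secreted inhibitor, was higher by 1.06 ± 0.19, a call that was lost at 0.98 without middle replicate 1. No gene of the FGF list (13 tested) or the Notch list (14 tested) was called, against 4.6% of all genes.

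The steepest differences were in genes of neurons, which were present in cKO middle and nearly absent from cKO apex. Chrna6 and Chrnb3 encode nicotinic acetylcholine receptor subunits and lie next to each other on chromosome 8 (27403212 to 27413944 on the minus strand and 27368711 to 27399730 on the plus strand). Chrna6 had no count in the 3 apex libraries and 14.9, 15.3 and 14.6 CPM in the middle libraries, which makes it at least 403.2-fold higher in the middle, with 3 counts over the apex pool as the floor. Chrnb3 had 2 counts in the apex pool and 1856 in the middle pool, a ratio of 743.4 (exact 95% interval 205.5 to 6143). In cKO base and in the 3 control pools both subunits stayed at or under a mean of 0.0514 CPM. Such intervals and floors cover counting error only, since the reads carry no molecular identifiers.

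Tac1, the precursor of substance P, had no count in the apex pool and 6.28, 6.17 and 6.79 CPM in the middle libraries, at least 173-fold higher in the middle. Fam19a2, which encodes a secreted chemokine-like protein of neurons, held 0.0744, 0.185 and 0.222 CPM in the apex and 25.5, 25.8 and 24.5 CPM in the middle (log2 change -7.27 ± 0.17). Hs3st2, a heparan sulfate sulfotransferase of neurons, had a log2 change of -7.32 ± 0.23, and Vgf, a neuropeptide precursor, one of -6.0 ± 0.22. Transcription factors were part of the set. Onecut1 had 1 count in the apex pool against 349 in the middle pool (ratio 279.6, exact 95% interval 49.8 to 11073), and Tlx3, a homeobox gene of sensory neurons in the hindbrain and spinal cord, none against 200 (at least 53.4-fold). Fam163b, of little known role, had 2 counts against 891, and the locus RP23-25K2.2 none against 175 (at least 46.7-fold). That locus is annotated as antisense, and no source used here says that counting used the strand, so its reads cannot be told apart from those of a gene on the other strand.

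Levels in cKO base divided these genes. Rgs8, a regulator of G-protein signalling known from Purkinje cells, held 0.0741 to 0.112 CPM in the apex and 9.8 to 10.5 CPM in the middle (log2 change -6.80 ± 0.21), but 34 CPM in the base. Lrrc3b, a leucine-rich repeat protein, was at 1.12 CPM in the base and 5.26 CPM in the middle. Fam19a2, Hs3st2 and Tac1 were at or under 0.18 CPM in the base, and Onecut1 had no count there.

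A list of 9 such genes, drawn up from earlier results on the cKO middle pool and so no independent evidence of direction, had all 9 lower in the apex, with a summed level of 28 to 30.4 CPM in the apex libraries and 183.4 to 190.1 CPM in the middle libraries. The list also holds 2 potassium channels with a wider expression: Kcnd3, a subunit of fast inactivating channels, fell from a mean of 18.9 CPM in the middle to 4 CPM in the apex (log2 change -2.24 ± 0.079), and Kcnh7, of the ERG family, had a log2 change of -1.45 ± 0.05. They were the called members of 20 voltage-gated channel genes, both lower in the apex, against 2.93% of all genes. Both channels were already chosen for the list above, so their count among channel genes is no independent evidence. For 8 of the 9 the difference from control was called, each below the control step, against 1.93% of all genes. Since the list came from earlier results on this pool, that count too is no independent evidence. Chrnb3 was the exception, with 0.0461 CPM as its highest control mean.

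General markers of the cochlea's own neurons did not share this pattern. Of 27 spiral ganglion neuron genes, Th and Gata3 were higher in the apex and Calb1 lower, against 1.67% and 2.93% of all genes. The list median was -0.14. Th, the tyrosine hydroxylase known from the unmyelinated type of these neurons, held 4.98, 4.26 and 3.7 CPM in the apex and 0.834, 0.801 and 0.711 CPM in the middle (log2 change 2.45 ± 0.18). Gata3, a transcription factor of these neurons and of the sensory epithelium, had a log2 change of 1.02 ± 0.024. Their summed level was 7147 to 7176 CPM in the apex and 7362 to 7399 CPM in the middle. None of 17 Schwann cell and peripheral myelin genes was called (median -0.14), against 4.6% of all genes.

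Genes of the central nervous system and its coverings, on lists chosen with earlier results of these data known, were also lower in the apex. Of 14 tested genes of oligodendrocytes and astrocytes, which myelinate and support central axons, 9 were lower, against 2.93% of all genes, and none higher. Mobp, a myelin protein of oligodendrocytes, held 0.297, 0.259 and 0.333 CPM in the apex and 14.3, 13.9 and 13 CPM in the middle (log2 change -5.52 ± 0.14). Gfap, the astrocyte filament, held 1.49 to 1.74 CPM and 18.5 to 18.9 CPM (log2 change -3.55 ± 0.093). Mog had 2 counts in the apex pool and 135 in the middle pool, and Klk6 and Olig2 had none in the apex. In the alternatives on FPKM values, given below, Olig2 lost its call. Its change was -0.51 on log2(FPKM + 0.1) and -0.06 on log2(FPKM + 1). Summed over the list, levels were closer (287.2 to 293.5 CPM and 323 to 328.2 CPM), since most of the sum came from the uncalled members Aldoc, Slc1a2, Ugt8a, Aqp4 and Gjb1, whose log2 changes ran from -0.23 for Gjb1 to 0.72 for Aqp4. In control 9 members were lower in the apex as well, against 3.22% of all genes. The list median was -3.81 there, against -2.70 in the cKO. The difference between genotypes was called for 1 of the 14 members, against 3.6% of all genes. That member was Hapln2, a link protein of central nodes (1.87, the smaller step in the cKO), named after its value was seen. Mobp was at 97.3 CPM in control middle and 4.02 CPM in control apex, and its difference between genotypes was not called (-0.88, adjusted p = 0.0056). What part these glial transcripts, or the cells they mark, have in the neuronal differences was not tested.

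In the cerebellar and hindbrain neuron list, 6 of 20 tested members were lower and 1 was higher, against 2.93% and 1.67% of all genes. Zic1, a transcription factor of cerebellar granule cells and of meninges, held 0.222 to 0.372 CPM in the apex and 13.8 to 14.7 CPM in the middle (log2 change -5.62 ± 0.14). Its neighbour in function Zic4 had 2 counts in the apex pool and 281 in the middle pool, a ratio of 112.5 (exact 95% interval 30.9 to 933.9). Cbln1, a synaptic organizer secreted by granule cells, had a log2 change of -1.84 ± 0.12. Skor2, a transcriptional regulator of Purkinje cells, had no count in the apex and at most 0.715 CPM in the middle. Ppp1r17, also known from Purkinje cells, was the higher member: 8.37, 8.92 and 9.66 CPM in the apex and 1.28, 1.16 and 1.22 CPM in the middle (log2 change 2.87 ± 0.12), close to its control step of 2.40. Chat and Slc18a3, which define cholinergic neurons, had no count in either pool.

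Meningeal and transporter genes had 8 of 14 members lower in the apex, against 2.93% of all genes. With the list chosen as said above, this count is no independent evidence. The members are genes of fibroblasts around the brain and of barrier cells that move organic ions and transmitters. Slc47a1, an exporter of organic cations, held 0.223, 0.259 and 0.296 CPM in the apex and 20.2, 20.8 and 20.1 CPM in the middle (log2 change -6.28 ± 0.13). The organic anion transporters Slc22a6 and Slc22a8 had log2 changes of -5.47 ± 0.14 and -3.46 ± 0.092. The betaine and GABA transporters Slc6a12 and Slc6a13 had changes of -5.12 ± 0.2 and -4.21 ± 0.09. Penk, the enkephalin precursor, had 3 counts in the apex pool and 728 in the middle pool, a ratio of 194.4 (exact 95% interval 66.3 to 944.8). No apex library overlapped a middle library for these genes. All 6 were also lower in control apex than in control middle, and all 6 fell further in the cKO, with differences between genotypes from -4.17 for Penk to -1.32 for Slc22a8. Igf2, a growth factor, and Foxd1, a forkhead factor, completed the called members, at -1.42 ± 0.022 and -1.72 ± 0.14. Ptgds, a prostaglandin synthase of meninges, was not called (-0.11).

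**Figure D3:**
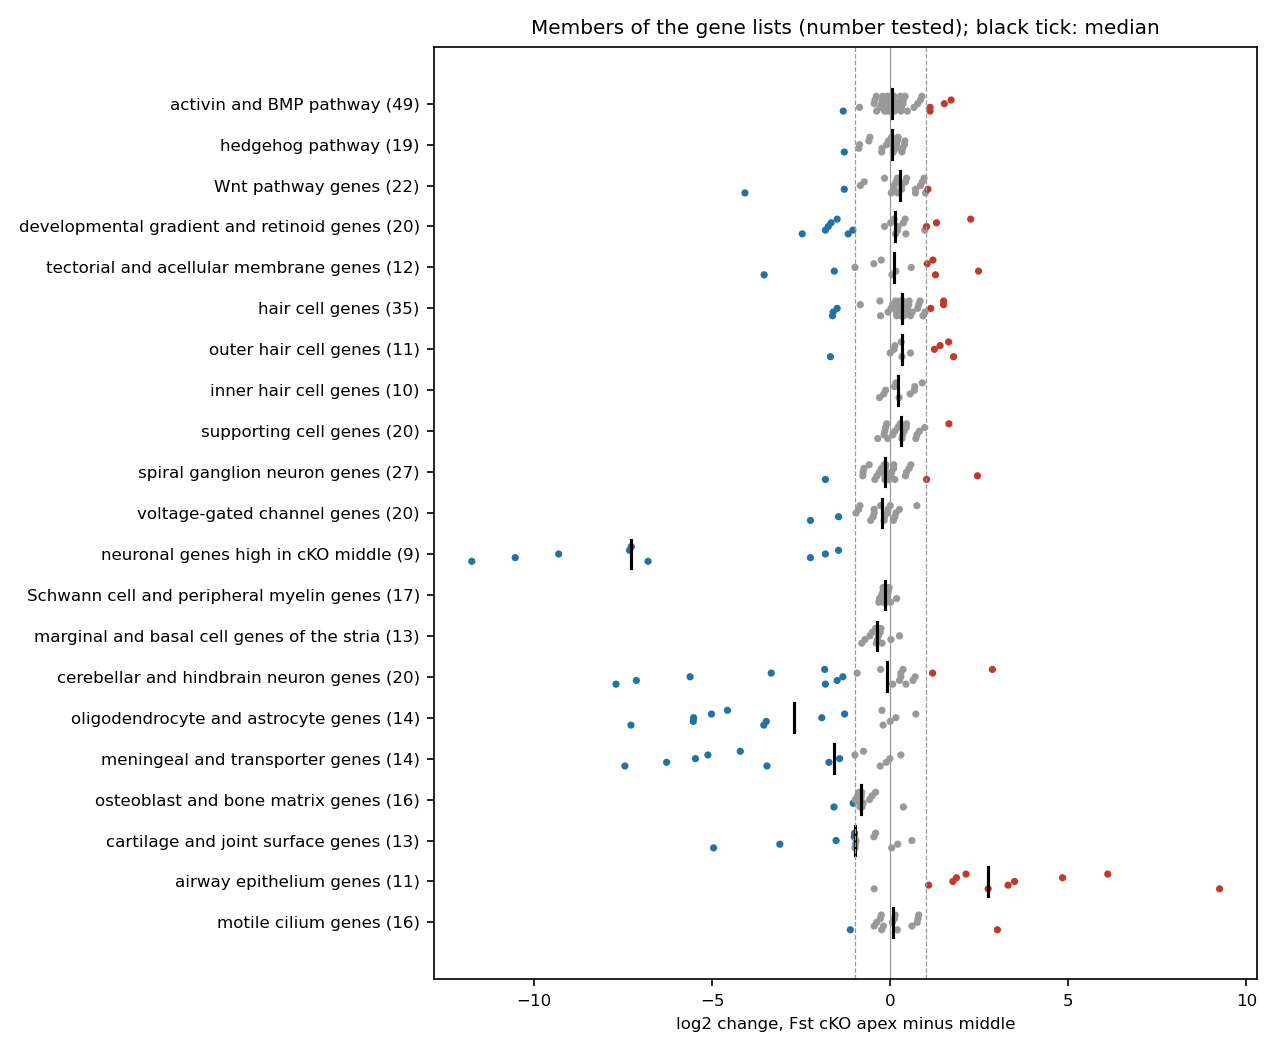
Log2 change between Fst cKO apex and middle for every tested member of 21 gene lists (points), with the median as a black tick and dashed lines at the fold threshold. Red and blue mark changes of at least 1 in size, not calls. Airway genes lie to the right and central glial, meningeal and the listed cKO middle neuronal genes to the left, while hair cell and pathway lists centre near 0.

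The opposite step was steepest in genes of airway and mucosal epithelium. Of 11 tested, 10 were higher in the apex, against 1.67% of all genes. This list too was chosen with earlier results of these data known, so the count is no independent evidence. Bpifa1 (ENSMUSG00000027483, chromosome 2, 154142880 to 154149219, plus strand), a secreted antimicrobial protein of upper airways and middle ear, held 313.9, 309.2 and 313.9 CPM in the apex libraries and 11.3, 10.7 and 10.6 CPM in the middle libraries (log2 change 4.84 ± 0.027). It made up most of the list's summed level, which was 355.1 to 360.3 CPM in the apex and 18.5 to 19.6 CPM in the middle. Cyp2f2, a cytochrome P450 of airway club cells, held 21.3, 23.4 and 23.9 CPM and 2.47, 2.05 and 1.54 CPM (log2 change 3.49 ± 0.1). The related enzyme Cyp2a5 was higher by 6.11 ± 0.34, and Sec14l3, a lipid-binding protein of ciliated airway cells, had no count in the middle pool and 215 in the apex pool (at least 89.5-fold). Muc5b, a gel-forming mucin, and Reg3g, an antimicrobial lectin, were higher by 2.13 ± 0.47 and 2.75 ± 0.31. The call for Muc5b was lost in the alternatives on FPKM values, at 0.35 on log2(FPKM + 0.1) and 0.04 on log2(FPKM + 1). Scgb1a1, the club cell secretoglobin that defines those cells, stayed near 0, at 0.0124 CPM in the apex and 0.0593 CPM in the middle.

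The base pools held Bpifa1 as well, at 88.6 CPM in cKO and 108.6 CPM in control, against 0.541 CPM in control middle and 6.49 CPM in control apex. Bpifb3 and Bpifb4, of the same family and the same stretch of chromosome 2 (153918230 to 153932996 and 153938212 to 153964101, plus strand), were among the 15 largest increases. Bpifb3 held 18, 18.9 and 18.4 CPM in the apex and 0.268, 0.741 and 0.267 CPM in the middle (log2 change 5.41 ± 0.14). Unlike Bpifa1 it was graded towards the apex in control as well, from 0.313 CPM in the base to 10.9 CPM in the apex. Bpifb4 was higher by 2.70 ± 0.22. Of 16 motile cilium genes, 1 was higher and 1 lower, against 1.67% and 2.93% of all genes. Dnah3, an axonemal dynein, was higher (3.01 ± 0.23) and Spag6 lower (-1.12 ± 0.31, and -0.95 without middle replicate 2). The list's summed levels were 85.2 to 88.8 CPM in the apex and 77 to 81.8 CPM in the middle.

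Promoters are shown for 3 of the increased airway and mucosal genes, chosen because they hold a TATA box motif, as examples of its position. RefSeq (GRCm38.p6) gave a promoter for 20 of the 30 genes with the largest changes, and the 250 bases before the start were searched on both strands for TATAAA, and for ATTGAT, the core that Onecut factors bind. TATAAA was found for 3 of 12 higher genes and 1 of 8 lower genes, against 12.4% of all 32851 promoters of that length. The promoters of Sec14l3, Cyp2f2, Bpifb3 and Bpifb4 held no TATAAA, so these exact letters are not shared by the increased airway genes. Variants of the TATA box were not searched. ATTGAT was found for none of the 20, against 6.72% of all promoters. The 3 higher genes with a match follow, with the matched letters (on either strand, so also TTTATA) in capitals.
Bpifa1 (chr2:154142630-154142879, plus strand): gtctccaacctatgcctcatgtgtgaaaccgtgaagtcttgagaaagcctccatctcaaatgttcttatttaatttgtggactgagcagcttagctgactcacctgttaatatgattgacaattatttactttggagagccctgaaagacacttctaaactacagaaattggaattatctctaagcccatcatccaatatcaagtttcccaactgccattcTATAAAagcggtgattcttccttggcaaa
Cyp2a5 (chr7:26835089-26835338, plus strand): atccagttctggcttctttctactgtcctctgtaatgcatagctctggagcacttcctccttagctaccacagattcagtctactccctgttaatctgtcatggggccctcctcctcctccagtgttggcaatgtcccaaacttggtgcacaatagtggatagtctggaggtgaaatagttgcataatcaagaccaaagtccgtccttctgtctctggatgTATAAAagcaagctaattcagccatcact
Reg3g (chr6:78468875-78469124, minus strand): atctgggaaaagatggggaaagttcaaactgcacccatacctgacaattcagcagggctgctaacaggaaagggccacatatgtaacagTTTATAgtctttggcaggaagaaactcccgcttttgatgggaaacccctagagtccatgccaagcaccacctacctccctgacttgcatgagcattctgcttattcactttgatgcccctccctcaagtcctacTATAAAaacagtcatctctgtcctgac
In each of the 3 a match starts 27 to 29 bases before the annotated start. A match is a description of the letters and not a measured binding site.

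The remaining genes with the largest increases belong to no single list. Apoa4 and Apoc3, apolipoprotein genes, had log2 changes of 3.14 ± 0.12 and 2.84 ± 0.36. Apoa4 held 12.8, 14.4 and 12.8 CPM in the apex and 1.7, 1.16 and 1.63 CPM in the middle, and rose towards the apex of the control too (24.1 CPM there). Tacr1, the receptor for substance P, had a change of 3.47 ± 0.31, opposite in direction to its ligand gene Tac1. Mpped1, a predicted phosphodiesterase, and Atp6v1b1, a proton pump subunit, were higher by 3.66 ± 0.39 and 3.57 ± 0.39, and Cdh26, an epithelial cadherin, by 3.0 ± 0.33. The groups of these genes did not overlap, which the rule that named them required. At the other end, Mmp3, a matrix protease, had 1 count in the apex pool and 118 in the middle pool (ratio 94.5, exact 95% interval 16.6 to 3765).

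Bone surrounds the cochlea, and its genes leaned towards the middle. Of 16 osteoblast and bone matrix genes, 2 were called lower in the apex, against 2.93% of all genes. The median of the list was -0.81. Col1a1, the main collagen of bone, held 77, 79 and 77.9 CPM in the apex and 227.3, 235.8 and 234.2 CPM in the middle (log2 change -1.58 ± 0.025), and Ibsp, bone sialoprotein, had a change of -1.04 ± 0.03. Among 13 cartilage and joint genes 4 were lower, against 2.93% of all genes, and the list median was -0.98. Prg4, the lubricant of joint surfaces, held 0.296 to 0.446 CPM and 11.6 to 13.5 CPM (log2 change -4.96 ± 0.16), and Acan, aggrecan, had a change of -1.01 ± 0.02. Of 15 neutrophil granule genes 3 were lower, against 2.93% of all genes: Chil3, Ngp and Fcnb. Fcnb lost its call without middle replicate 3 (-0.92), apex replicate 2 (-0.99) or apex replicate 3 (-0.92). All 15 had an adjusted p under the threshold with a negative change, as had 4508 of all 17901 genes. The summed level of the 15 was 159.1 to 163.4 CPM in the apex and 290.5 to 291.5 CPM in the middle. None of 15 red blood cell, 12 platelet, 15 proliferation, 13 endothelial or 13 marginal and basal strial genes was called, against 4.6% of all genes. Single members were called in other lists: Trpm1, a channel of melanocytes (-1.16 ± 0.066), Cd163, a scavenger receptor of macrophages (-1.05 ± 0.099), and the interferon-induced Mx1 (1.02 ± 0.19, but 0.82 and no call without apex replicate 1 and 0.97 without middle replicate 3). Of 11 skeletal muscle genes 3 were higher and 3 lower, against 1.67% and 2.93% of all genes. The list's summed level was 23.8 to 26.1 CPM in the apex and 16.9 to 17.6 CPM in the middle.

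Sex-linked transcripts were close in the cKO apex and middle pools. Xist, transcribed in females, held 80.8 to 82.9 CPM in the apex and 87.2 to 87.8 CPM in the middle, and the 4 Y-linked genes had log2 changes from -0.18 to -0.10. Summed over Xist and these 4, levels were 247.5 to 254.7 CPM in cKO apex and 269.4 to 271.2 CPM in cKO middle. Control apex held 463.6 to 471 CPM and control middle 407.8 to 416.8 CPM. The difference between genotypes was -0.38 for Xist, under the threshold. What part the sex mix of the pools has in such differences was not tested. The core clock (15 genes) and immediate early genes (14) had no called member, against 4.6% of all genes.

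The apex-middle step of the cKO and that of the control share no library and could be tested against each other. In control mice 373 genes (2.08%) were higher and 576 (3.22%) lower in the apex. The step was called in the same direction in both genotypes for 131 higher genes, 43.8% of those of the cKO and 35.1% of those of the control, and for 160 lower genes, 30.5% and 27.8%. For 645 genes (3.6%) the difference between the steps was itself called, with the cKO step above the control step for 299 (1.67%) and below it for 346 (1.93%). Of the 525 genes lower in cKO apex, 216 were also called below the control step, and of the 299 higher genes 57 were called above it. The 10 largest called differences among genes that met the naming rule were all negative and in genes high in cKO middle, among them Chrna6, RP23-25K2.2, Onecut1, Tac1, Rgs8, Fam163b, Fam19a2, Hs3st2 and Lrrc3b. For Fam19a2 the difference was -7.12 ± 0.9 and for Rgs8 -8.90 ± 1, while the sizes for genes without counts in a pool depend on the prior count of the fit. For Hs3st2 the call was lost without control apex replicate 2 (-5.77, adjusted p = 0.102).

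**Figure D4:**
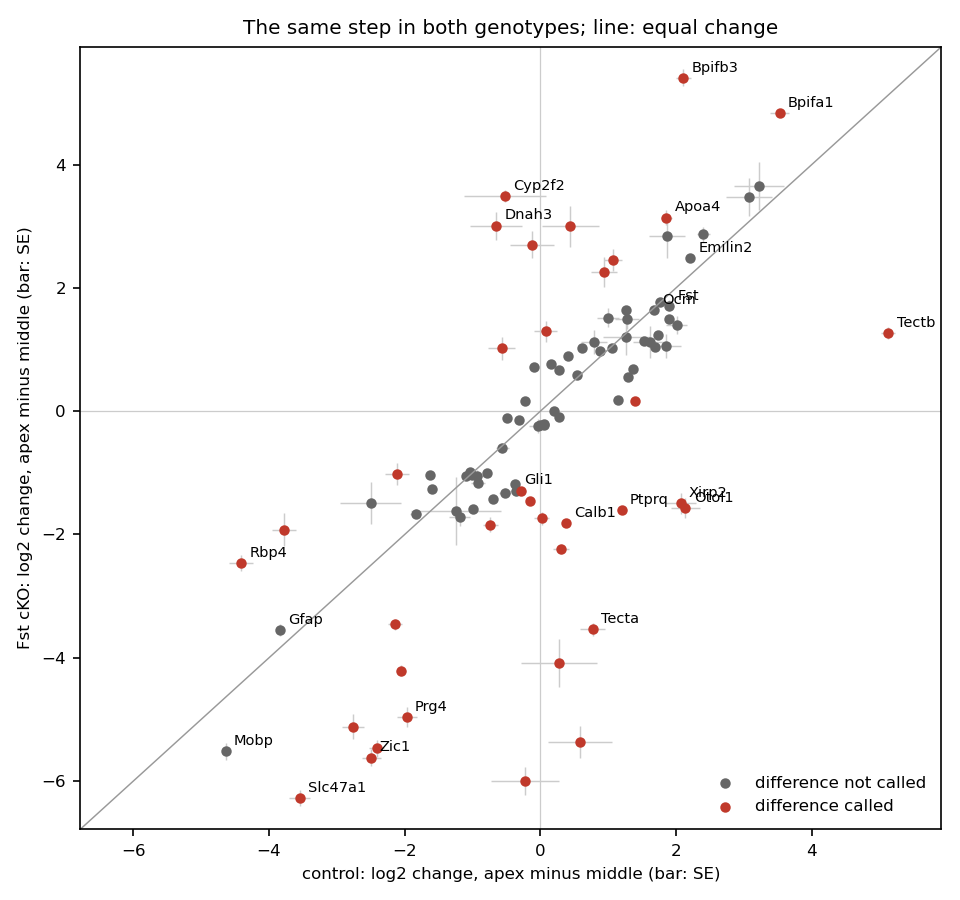
Log2 change between apex and middle in control (x) and in Fst cKO (y), with SE bars, for the genes named in the text that had more than 3 counts in both cKO pools and at least 0.3 CPM in the control pools together. Genes on the line had equal steps, as Fst and Ocm nearly did, and Tecta, Otol1, Ptprq, Xirp2 and Calb1 lie below 0 in the cKO and above 0 in the control.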

How the data were processed

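RNA of 6 pools was sequenced in 18 libraries, prepared after Ribo-Zero depletion with the TruSeq RNA Sample Prep v2 chemistry, per the labels' protocols. The submitters' processing notes name STAR 2.5.2b, Cuffdiff 2.2.1 and the build GRCm38/mm10, without the role of each. The deposited table of 46583 genes holds expected counts (89.2% to 89.9% whole per library, within 1e-06), rounded here, and FPKM values computed by the authors, used only in alternatives. How the counts were made is not given in the sources used here. Every library column was used.

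CPM scales a gene's count to a common library total. Counts were fitted with edgeR 4.0.16 (R 4.3.3), all 18 libraries as 6 groups in 1 design (12 residual degrees of freedom), after filterByExpr (17901 genes) and TMM scaling (factors 0.977 to 1.03). Quasi-likelihood F tests were two-sided and adjusted by Benjamini-Hochberg over all tested genes. Libraries of the cKO apex and middle pools differed by a chi-square per degree of freedom of 1.19 to 1.22 over genes with at least 20 counts, and were kept apart because merging would leave 1 value per group. The common coefficient of variation was 0.00988, which here is technical. The difference between genotypes is the contrast of the cKO step minus the control step. Floors are 3 counts over a pool, and ratio intervals are exact (Clopper-Pearson) at 95%. The fit was tested on simulated data.

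Members and lists were chosen with earlier results of these data known. The 41 lists hold 628 genes, of which 627 were found and 593 tested, with no set test. Genes were named by a fixed rule: the 15 largest called changes in each direction, at 1 CPM or more in the higher pool, without overlap of libraries and with a symbol that stands on 1 row and is no predicted-gene, Riken-clone or pseudogene name; up to 6 called and 4 uncalled members per list; the 10 largest differences between genotypes; and fixed genes of interest. Genes outside it (Smad6, Aldh1a2, A2m, Nr2f1, Crabp1 and a few others on the lists) were named after their values were seen. Some genes that the rule names are not reported here. Alternatives covered scaling, filters, tools (DESeq2 1.42.0, limma 3.58.1), the fold rule and left-out libraries. Gene positions are from GENCODE M21, in which 46074 genes were found.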

Additional observations from a re-analysis of the deposited data

Results flagged for a closer look

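The genes below were flagged because the step from middle to apex differed between cKO and control by a test of the difference itself. Values are the cKO log2 step minus the control step.

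For genes higher in cKO apex the difference was 5.26 for Cyp2a5, 4.01 for Cyp2f2, 3.66 for Dnah3, 3.30 for Bpifb3, 3.07 for Muc5b, 2.82 for Bpifb4 and 2.56 for Cdh26. It was 1.59 for Mx1, 1.38 for Th, 1.32 for Lhx1, 1.31 for Bpifa1, 1.28 for Apoa4 and 1.22 for Crabp1. The call for Cyp2a5 rested on control middle replicate 3 (2.60, adjusted p = 0.877 without it). Muc5b lost its call without any of 6 libraries in turn, control middle replicate 3 (2.16), control apex replicates 2 and 3 (2.55 each), cKO middle replicates 1 and 3 (3.02 each) and cKO apex replicate 2 (2.91). Rbp4 (1.94), Hapln2 (1.87) and Fcnb (1.09) were lower in the apex of both genotypes, with the smaller step in the cKO, and Fcnb lost its call without control apex replicate 1 (0.95), cKO middle replicate 2 (1.0, rounded) or cKO apex replicate 1 (0.96).

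Among neuronal genes the difference was -14.89 for Chrna6, -9.99 for Tac1, -10.34 for Onecut1, -8.90 for Rgs8, -7.91 for Fam163b, -7.12 for Fam19a2, -6.62 for Hs3st2, -5.95 for Lrrc3b and -5.79 for Vgf. The locus RP23-25K2.2 had -11.28. Sizes for genes at or near 0 counts depend on the prior count of the fit. Smaller differences were found for Kcnd3 (-2.54), Calb1 (-2.20) and Kcnh7 (-1.30).

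In tectorial and hair cell genes it was -4.31 for Tecta, -3.86 for Tectb, -3.71 for Otol1, -3.57 for Xirp2, -2.80 for Ptprq and -1.24 for Otog. In meningeal, cerebellar and joint genes it was -4.31 for Zic4, -4.17 for Penk, -3.13 for Zic1, -3.06 for Slc22a6, -3.0 for Prg4, -2.73 for Slc47a1, -2.36 for Slc6a12, -2.16 for Slc6a13, -1.32 for Slc22a8 and -1.10 for Cbln1. For signalling and cilium genes it was -4.36 for Wnt2, -2.14 for Spag6, -1.76 for Stra6 and -1.01 for Wnt4. Spag6 lost its call without control apex replicate 2 (-1.65), and Wnt4 without any of 5 libraries in turn: control middle replicate 1 or 3 (-0.99 each), control apex replicate 1 (-0.93), cKO middle replicate 2 (-0.99) or cKO apex replicate 2 (-0.93).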

How the results depend on the processing

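The 299 higher and 525 lower calls stayed within 1.5 times with the 6 libraries alone (272 and 448), DESeq2 (258 and 466), RLE factors, library totals or voom. Without a filter there were 377 and 605. Other choices moved the counts. Keeping only genes that averaged 5 CPM or more gave 63 and 120, because fewer genes were tested. The glmTreat test against a log2 change of 1 gave 110 and 230, and the adjusted p alone gave 4607 and 4508, both by their construction. Limma on log2(FPKM + 1) gave 71 and 132. On log2(FPKM + 0.1) it gave 211 and 347, and the cause was not tested, although a larger pseudocount shrinks the change of low genes. Leaving out 1 library gave 307 to 331 higher and 516 to 533 lower. The difference between genotypes gave 278 to 303 higher and 327 to 347 lower when 1 library was left out. For the apex-middle step in the cKO, of 1972 values of 119 named genes under alternatives, 85 lost the call, 3 gained it and 0 reversed. These totals leave out the difference between genotypes, for which some named genes also lost or gained the call.

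Replicate numbers are shared by the groups, so the number was also fitted as a replicate block, with 300 higher and 519 lower calls, and 295 and 343 for the difference between genotypes. Across 12397 genes the same-numbered apex and middle libraries correlated in their deviations at 0.0794, 0.193 and 0.0662, against -0.115 to 0.045 for other pairs. Each library correlated best with its own number, a hint from the data, yet they share only a number.

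With 1 pool per group, no setting shows the spread between animals. Genes under 1 CPM, 122 of the higher and 207 of the lower calls, rest on few counts.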

Other observations

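Of 35 hair cell genes, 16 were called higher in control apex than in control middle, against 2.08% of all genes, and none lower. In the same step of the cKO 3 were called higher and 3 lower, against 1.67% and 2.93%. The difference between genotypes was called for 5, each below the control step, against 1.93% of all genes. Blood and dividing cells gave the opposite count. In control, 11 of 15 red blood cell genes, 10 of 12 platelet genes, 11 of 15 proliferation genes and all 15 neutrophil genes were lower in the apex than in the middle, against 3.22% of all genes. In the cKO none of the first 3 groups had a called member, against 4.6% of all genes. For neutrophil genes 3 were lower, against 2.93%. The difference between genotypes was called, above the control step, for 9, 9, 11 and 7 of these genes, against 1.67% of all genes. Among all genes, 17 were lower in cKO apex and higher in control apex, and 4 were higher in cKO apex and lower in control apex.

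Nox3, an oxidase subunit of the vestibular organ, had no count in cKO apex and 0.208 to 0.387 CPM in cKO middle.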
